A study of Arabidopsis thaliana with 6 samples.

Results

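Transcripts of 10 Polycomb and vernalization genes were compared between wild-type Col and *brr2a*-2, the Arabidopsis mutant named cao in the sample labels. The genes were taken by their identifiers from the 28775 genes of the gene counts, and the rule sets no threshold on a measured value. They are *CLF* (AT2G23380), *SWN* (AT4G02020), *FIE* (AT3G20740), *EMF2* (AT5G51230), *VRN2* (AT4G16845), *VRN1* (AT3G18990), *VIN3* (AT5G57380), *VRN5* (AT3G24440), *VEL1* (AT4G30200) and *LHP1* (AT5G17690). Each genotype was represented by 3 libraries, labelled as biological replicates 1 to 3. Both genotypes are of ecotype Col-0, received no treatment, grew side by side in short days for 15 days and were harvested 1 h before dark. The labels name rosette leaves as the tissue, and none of them mentions a cold period. *brr2a*-2 carries a missense allele of *BRR2a*, which encodes an RNA helicase of the spliceosome, and was backcrossed to Col after a screen that started from a line with altered MSI1. A single allele was sequenced, so the effect of the allele and that of other differences between the lines cannot be told apart.

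Polycomb repressive complex 2 (PRC2) methylates lysine 27 of histone H3, a mark of stably silenced genes. In plants the complex holds an E(z)-type methyltransferase, an ESC-type WD40 protein, a Su(z)12-type zinc finger protein and an MSI-type histone-binding protein, and LHP1 reads the mark. During prolonged cold VIN3 and its relatives associate with a PRC2 that contains VRN2 and silence *FLC*, the repressor of flowering, after which plants flower sooner. The comparison asks whether transcript levels or introns of this machinery differed in a mutant with altered splicing and early flowering.

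The 10 genes hold 97 annotated introns with a median length of 100 bp and a median GC content of 32.9%, beside 100 bp and 32.7% for 110775 introns placed on TAIR10.1. All 97 end in AG, as do 99.9% of the placed introns. GT is the start of 95 of them, and the other 2, in *CLF* and *SWN*, start with GC, which 0.998% of the placed introns do. Intron sequences are shown because they are the stretches over which intron counts were taken: first the intron with the most counts in each of 5 genes, then the 2 introns that start with GC. These are introns of the first isoform, and parts of introns can be exon in another isoform. They were chosen after their counts were seen and come from the RefSeq sequence of TAIR10.1, 5′ to 3′ on the transcribed strand. Capitals mark the 6 bases at the 5′ splice site and the 3 bases at the 3′ splice site.
VRN2 intron 5: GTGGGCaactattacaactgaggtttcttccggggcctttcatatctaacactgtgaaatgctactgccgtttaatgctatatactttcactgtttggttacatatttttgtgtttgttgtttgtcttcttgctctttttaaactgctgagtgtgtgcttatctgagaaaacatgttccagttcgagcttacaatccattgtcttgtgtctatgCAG
SWN intron 4: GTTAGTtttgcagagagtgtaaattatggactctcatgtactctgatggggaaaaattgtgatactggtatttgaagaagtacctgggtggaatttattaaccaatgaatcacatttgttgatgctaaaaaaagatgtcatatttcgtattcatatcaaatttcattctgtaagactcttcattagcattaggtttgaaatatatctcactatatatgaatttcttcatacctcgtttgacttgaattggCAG
EMF2 intron 10: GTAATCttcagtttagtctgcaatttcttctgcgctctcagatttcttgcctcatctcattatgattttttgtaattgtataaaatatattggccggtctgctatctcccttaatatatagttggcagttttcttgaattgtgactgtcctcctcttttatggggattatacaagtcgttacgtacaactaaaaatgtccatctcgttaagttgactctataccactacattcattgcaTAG
CLF intron 5: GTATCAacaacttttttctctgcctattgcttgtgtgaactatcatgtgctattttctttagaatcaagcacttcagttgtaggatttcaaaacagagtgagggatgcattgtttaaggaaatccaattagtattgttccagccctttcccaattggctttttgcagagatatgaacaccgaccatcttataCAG
LHP1 intron 5: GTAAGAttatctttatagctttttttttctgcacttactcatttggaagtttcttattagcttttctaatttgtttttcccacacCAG
CLF intron 15: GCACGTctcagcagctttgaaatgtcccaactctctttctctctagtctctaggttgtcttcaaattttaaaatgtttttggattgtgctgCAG
SWN intron 3: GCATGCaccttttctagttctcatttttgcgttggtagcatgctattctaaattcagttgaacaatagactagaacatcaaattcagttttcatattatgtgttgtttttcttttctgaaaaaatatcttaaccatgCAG

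*VRN2* intron 5 lies at chr4:9477448-9477664 on the plus strand, *SWN* intron 4 at chr4:887765-888017 on the plus strand, *EMF2* intron 10 at chr5:20826271-20826512 on the plus strand, *CLF* intron 5 at chr2:9956877-9957071 on the plus strand and *LHP1* intron 5 at chr5:5827552-5827639 on the minus strand. The introns that start with GC are *CLF* intron 15 at chr2:9959662-9959755 and *SWN* intron 3 at chr4:887466-887605, both on the plus strand.

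A library held 18692830 to 29830638 gene counts and 561146 to 1065088 intron counts. Genes encoded in the chloroplast took 40.1% to 46.4% of the gene counts. The leaf markers *RBCS1A*, *LHCB1.1*, *CA1* and *RCA* summed to 4061, 11728 and 6560 CPM (counts scaled to the TMM-adjusted size of each library) in Col 1 to 3 against 9529, 9096 and 9149 CPM in *brr2a*-2 1 to 3. The root markers *WOX5*, *PLT1*, *PLT2*, *COBL9*, *EXPA7*, *RHD6*, *LRX1* and *PIN2* summed to 16.2, 6.65 and 2.85 CPM in Col against 7.06, 6.46 and 7.28 CPM in *brr2a*-2. The shoot apex markers *CLV3*, *WUS*, *STM* and *KNAT1* summed to 11.8 to 49.0 CPM in Col against 27.6 to 43.6 CPM in *brr2a*-2, with *CLV3* and *WUS* at or near 0, and *KNAT1* gave most of the sum. Library Col 1, the deepest, therefore had the lowest sum of leaf markers and the highest sum of root markers. The part of this difference in the results was not tested. Counts of genes without overlap are also given without Col 1 for the Polycomb and vernalization genes, beside all genes. For the other lists these counts were not repeated. The targeted gene *BRR2a* had 156, 128 and 133 CPM in Col against 155, 165 and 175 CPM in *brr2a*-2, with an adjusted p of 0.533, and as the allele is a missense change its counts do not check the genotype labels.

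Per kilobase of exon, *VEL1* had the highest level of the 10 genes in Col, 16.9 ± 2.12 CPM per kb (SD, n = 3), followed by *SWN* at 12.7 ± 0.670. *VRN1* at 9.96 ± 1.46, *EMF2* at 9.39 ± 0.801, *VRN5* at 8.33 ± 1.09 and *VRN2* at 7.64 ± 0.916 CPM per kb came next, and each overlapped its neighbour in this order over the libraries. *FIE* followed at 5.47 ± 0.408, *CLF* at 4.18 ± 0.628 and *LHP1* at 3.39 ± 0.917 CPM per kb, of which *CLF* and *LHP1* overlapped. *VIN3* was last at 0.0133 ± 0.0230 CPM per kb. The genes whose products act together in PRC2 thus covered a range of levels, with *SWN* above *CLF* in every library of both genotypes. In *brr2a*-2 the same genes lay at both ends of the order, with *VEL1* at 17.1 ± 1.70 and *SWN* at 14.5 ± 0.862 CPM per kb at the top, which overlapped there, and *CLF* at 3.17 ± 0.204, *LHP1* at 3.30 ± 0.954 and *VIN3* at 0.0840 ± 0.0633 CPM per kb at the bottom. *VRN1*, at 7.65 ± 0.326 CPM per kb in *brr2a*-2, was there below *EMF2*, *VRN5* and *VRN2*, although its range overlapped that of *VRN2*.

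**Figure D1:**
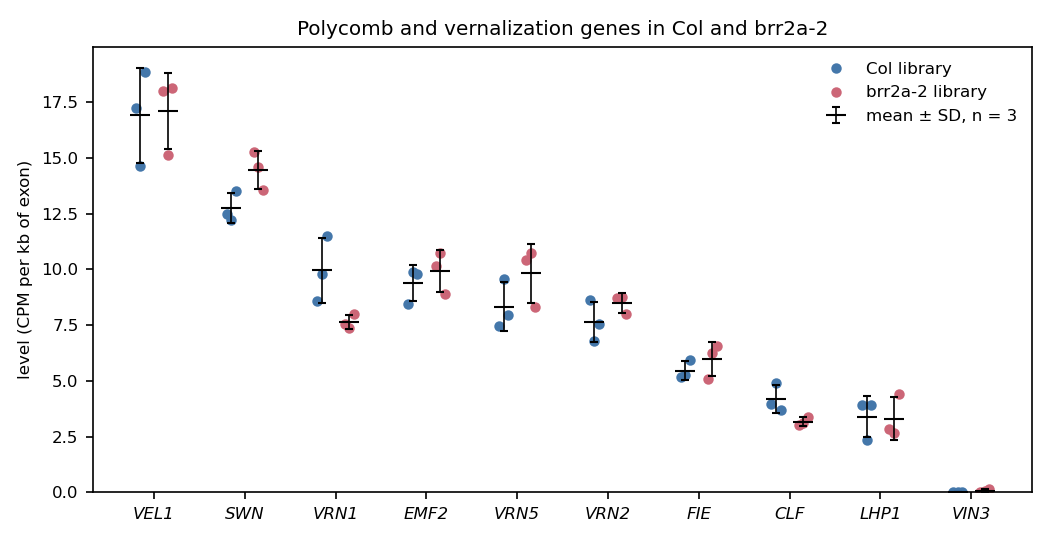
Level of each gene in CPM per kb of exon, with a point per library, blue for Col and red for *brr2a*-2, and bars for mean and SD of 3 libraries. Points of both genotypes overlap for *VEL1*, *EMF2*, *VRN5*, *VRN2*, *FIE* and *LHP1*, the *brr2a*-2 points lie below Col for *CLF* and *VRN1*, and *VIN3* sits near 0.

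None of the 10 genes differed between the genotypes by the thresholds used, which asked for an adjusted p below 0.05 together with a log2 fold change of 1 or more in either direction. Of the 10 genes, 9 passed the filter on low counts and entered the quasi-likelihood test of edgeR, and all 9 log2 fold changes lay between -0.40 and 0.24. The count of 0 stands beside 0.0% of 19121 genes called in the same test. At an unadjusted p under 0.05, 0 of the 9 genes passed beside 14.4% of all genes, and DESeq2 also called 0 of them where it called 2.1% of all genes. That count of 0 lies close to the threshold, as edgeR's unadjusted p was 0.0562 for *CLF* and 0.0568 for *VRN1*. Col and *brr2a*-2 values were fully apart for 3 of the 9 genes, beside 21.0% of all genes, with 1 gene higher beside 10.8% and 2 genes lower beside 10.2%. Without Col 1, 2 genes were higher beside 17.7% of all genes and 2 were lower beside 16.5%. The median log2 fold change of the 9 genes was 0.08, beside -0.04 for all genes. For each of the 9, the 95% interval of the log2 fold change, not adjusted for the number of genes, lay between -1 and 1, as it did for 55.5% of all genes. Changes of 1 or more on the log2 scale thus lay outside these intervals, and 0 lay within all of them. In bulk tissue a change in the number of cells that express a gene and a change in its transcripts per cell cannot be told apart.

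*CLF* and *SWN* encode the E(z)-type methyltransferases of PRC2 outside the seed. *CLF* had 13.9, 17.2 and 13.0 CPM in Col 1 to 3 against 10.6, 10.9 and 12.0 CPM in *brr2a*-2 1 to 3. The highest *brr2a*-2 library lay below the lowest Col library, and the mean in *brr2a*-2 was 76.0% of that in Col. The log2 fold change was -0.40 ± 0.17 (SE), with a 95% interval from -0.80 to 0.01 (edgeR, adjusted p = 0.360). *SWN* had 42.6, 41.6 and 46.0 CPM in Col against 51.9, 49.7 and 46.1 CPM in *brr2a*-2. All *brr2a*-2 libraries were higher, but *brr2a*-2 3 barely exceeded Col 3. The log2 fold change of *SWN* was 0.18 ± 0.14 (SE), with an interval from -0.15 to 0.52 (edgeR, adjusted p = 0.588).

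*FIE* encodes the ESC-type protein shared by the PRC2 complexes of the plant. It had 8.12, 8.23 and 9.28 CPM in Col against 7.98, 9.79 and 10.2 CPM in *brr2a*-2, and the ranges overlapped. The log2 fold change was 0.13 ± 0.18 (SE) (edgeR, adjusted p = 0.768). In TAIR10.1 *FIE* overlaps genes on the opposite strand, as do *CLF*, *VIN3* and *LHP1* near their ends, and reads from both strands cannot be separated because whether counting used strand is not given in the sources used here.

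*EMF2* and *VRN2* encode Su(z)12-type proteins, *EMF2* being required to keep seedlings vegetative and *VRN2* to keep *FLC* silent after cold. *EMF2* had 22.9, 26.8 and 26.5 CPM in Col against 27.4, 29.0 and 24.1 CPM in *brr2a*-2. *VRN2* had 17.0, 13.4 and 14.9 CPM in Col against 17.3, 17.3 and 15.8 CPM in *brr2a*-2. For both genes 2 of the *brr2a*-2 libraries were above all Col libraries and the third lay within the Col range. The log2 fold change was 0.08 for *EMF2*, with an interval from -0.29 to 0.45, and 0.15 for *VRN2*, with an interval from -0.23 to 0.53, and neither adjusted p in edgeR's test was below 0.696.

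*VRN5* and *VEL1* encode relatives of VIN3 with a PHD finger that accompany PRC2. *VRN5* had 19.0, 24.3 and 20.2 CPM in Col against 26.5, 27.3 and 21.1 CPM in *brr2a*-2. Only *brr2a*-2 3 lay within the Col range, and the log2 fold change was 0.24 ± 0.18 (SE), with an interval from -0.18 to 0.66 (edgeR, adjusted p = 0.575). *VEL1* had 47.6, 40.5 and 52.1 CPM in Col against 49.8, 41.8 and 50.1 CPM in *brr2a*-2. All its *brr2a*-2 libraries lay within the Col range, with a log2 fold change of 0.02 and an interval from -0.38 to 0.41.

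*VIN3* is the member of this family known to be induced by prolonged cold. It had 3, 0 and 0 counts in Col against 1, 4 and 6 counts in *brr2a*-2, so it was near the limit of detection in all libraries and was not tested. Pooled over libraries, the 11 counts in *brr2a*-2 and the 3 counts in Col gave a ratio of 4.47 after scaling to library size, with an exact 95% interval from 1.18 to 24.9 that covers counting error only. The libraries overlapped, as Col 1 had more counts than *brr2a*-2 1.

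*VRN1* encodes a B3-type DNA-binding protein needed for stable silencing of *FLC* after cold, and *LHP1* a chromodomain protein that binds methylated lysine 27. *VRN1* had 19.5, 22.3 and 26.1 CPM in Col against 17.2, 16.7 and 18.2 CPM in *brr2a*-2. All *brr2a*-2 libraries lay below Col, at 76.8% of its mean. The log2 fold change was -0.38 ± 0.17 (SE), with an interval from -0.78 to 0.01 (edgeR, adjusted p = 0.360). *LHP1* had 7.94, 4.74 and 8.01 CPM in Col against 5.81, 5.40 and 8.95 CPM in *brr2a*-2. Its libraries overlapped widely, with a log2 fold change of -0.04 ± 0.30 (SE) and the widest interval of the 9 genes, from -0.73 to 0.65. *LHP1* also had the fewest counts of the 9 tested genes, 102 in library Col 2.

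**Figure D2:**
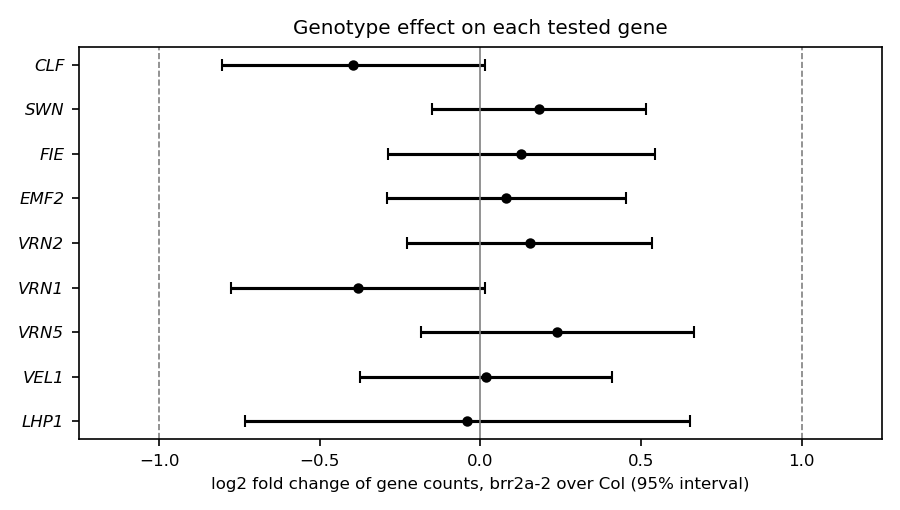
Log2 fold change of gene counts in *brr2a*-2 over Col with its 95% interval for the 9 tested genes, the dashed lines marking -1 and 1. Every interval includes 0 and lies between the dashed lines, with *CLF* and *VRN1* farthest to the left, at -0.40 and -0.38.

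*FLC*, the gene that this machinery silences after cold, had 3.08, 8.93 and 15.2 CPM in Col against 0.646, 0.193 and 0.778 CPM in *brr2a*-2, a log2 fold change of -4.07 (edgeR, adjusted p = 0.164). DESeq2 called it, with a log2 fold change of -4.08 and an adjusted p of 7.78e-07. All *brr2a*-2 libraries lay below all Col libraries. An antisense gene spans the *FLC* locus on the other strand, and its reads cannot be separated here.

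Intron counts were available for the 7 genes that are not on chromosome 3, since intron names on chromosome 3 did not follow their genes in this table. Across genes, the rank correlation of summed intron counts with gene counts was 0.234 there and 0.729 to 0.771 on the other chromosomes. The 7 genes have 79 introns, of which 77 had at least 1 count, but only 10 passed the filter. Of these 10 introns, 0 were called by edgeR's test after correction for the change of the gene, beside 0.273% of 17214 introns, and 0 passed an unadjusted p under 0.05, beside 12.6%. DESeq2 gave an adjusted p for 5 introns of these genes and called 0 of them, beside 1.2% of the introns it tested. These shares over all introns include chromosome 3, where the correction does not follow the gene of the intron. Without chromosome 3 introns, edgeR's test called 1 higher and 0 lower of 13811 introns. At an unadjusted p under 0.05, 543 of these were higher and 879 lower. The edgeR and DESeq2 tests scale libraries by the intron counts themselves, so they measure each intron relative to introns in general.

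Relative to the gene counts, reads in introns had higher values in *brr2a*-2 for most of these genes, as they had for genes in general. Intron counts per 100 gene counts, called intron share here, were summed over all introns of a gene. Over all genes not on chromosome 3 the share was 6.46, 4.83 and 5.32 in Col 1 to 3 against 8.20, 7.21 and 7.52 in *brr2a*-2 1 to 3. The share was higher in *brr2a*-2 without overlap for 4 of the 6 genes with sufficient counts, *CLF*, *SWN*, *VRN2* and *LHP1*, beside 41.4% of 10912 genes with at least 30 intron counts. It was lower without overlap for 0 of the 6, beside 0.467% of all genes. Without Col 1, the library with the highest share among Col over all genes, the count was 6 of 6, beside 55.0% of all genes. The higher intron share of these genes thus accompanied one seen across the genome, where the median ratio of *brr2a*-2 to Col was 1.43.

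*VRN2* had the highest intron share of the 6 genes in *brr2a*-2. It had 12.1, 20.5 and 13.8 intron counts per 100 gene counts in Col against 26.5, 28.7 and 28.9 in *brr2a*-2. The lowest *brr2a*-2 library stood well above the highest Col library, and the mean changed from 15.5 ± 4.44 to 28.0 ± 1.34 (SD, n = 3), a ratio of 1.81. Per kb, reads over *VRN2* introns were at 15.1% of the density over its exons in Col and at 27.3% in *brr2a*-2. Some bases of these introns are exon in another isoform, so these densities are approximate. The exact two-sided permutation test gave p = 0.1, which is as low as 3 against 3 libraries can reach, and 0.239 after adjustment over the 10912 genes.

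*LHP1* had 9.51, 7.84 and 4.61 intron counts per 100 gene counts in Col against 14.3, 11.6 and 16.1 in *brr2a*-2, a ratio of means of 1.91 that rests on 7 to 26 intron counts per library. *CLF* had 8.70, 7.86 and 14.2 in Col against 17.5, 16.3 and 19.5 in *brr2a*-2, a ratio of 1.73. For both genes all *brr2a*-2 libraries were higher than Col, with exact permutation p = 0.1 and 0.239 after adjustment. In *CLF* the gene counts, by which the share is divided, also had lower values in *brr2a*-2, and when scaled to the gene counts of the library its introns had 1.21, 1.35 and 1.84 CPM in Col against 1.85, 1.78 and 2.33 CPM in *brr2a*-2, which overlapped. The introns of *LHP1* likewise overlapped on that scale, with 0.369 to 0.755 CPM in Col against 0.627 to 1.45 CPM in *brr2a*-2. Those of *EMF2*, which overlapped by share, were higher without overlap on that scale, with 4.23, 3.44 and 3.53 CPM in Col against 6.23, 4.78 and 5.17 CPM in *brr2a*-2, and those of *SWN* and *VRN2* were higher without overlap on both scales.

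*SWN* had 8.44, 6.59 and 7.34 intron counts per 100 gene counts in Col against 12.8, 10.2 and 9.65 in *brr2a*-2, a ratio of 1.46, with no overlap. *EMF2* had 18.4, 12.8 and 13.3 in Col against 22.7, 16.4 and 21.5 in *brr2a*-2, a ratio of 1.36, and *brr2a*-2 2 lay below Col 1. *VEL1* had 13.5, 11.4 and 10.12 in Col against 14.0, 11.4 and 14.5 in *brr2a*-2, a ratio of 1.14 that was the lowest of the 6. The exact permutation test gave p = 0.1 for *SWN* and p = 0.2 for *EMF2* and *VEL1*. Among all genes these ratios lay at percentiles from 21.0 for *VEL1* and 43.3 for *EMF2* to 79.4 for *VRN2* and 84.3 for *LHP1*.

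**Figure D3:**
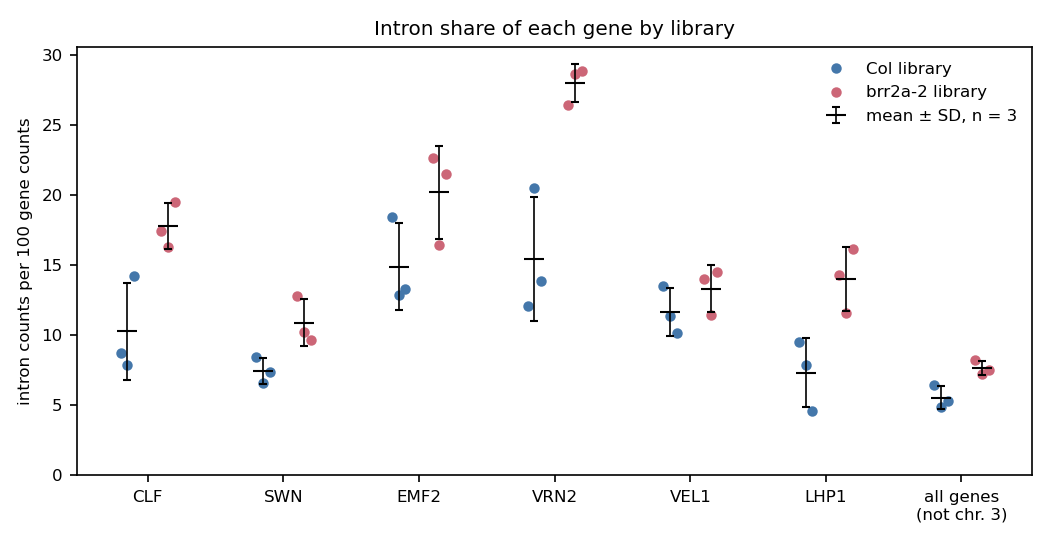
Intron counts per 100 gene counts for 6 genes and for all genes not on chromosome 3, with a point per library and bars for mean and SD of 3 libraries. The red *brr2a*-2 points lie above the blue Col points for *CLF*, *SWN*, *VRN2*, *LHP1* and all genes, and overlap them for *EMF2* and *VEL1*.

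In a test added after the values were seen, the introns of each gene were summed and fitted with edgeR on the library sizes of the gene counts, with the change of the gene as offset. The log2 change was 0.89 for *VRN2* with an interval from 0.37 to 1.40 and an adjusted p of 0.0786, and 0.84 for *CLF* with an interval from 0.24 to 1.44 and an adjusted p of 0.106. At an unadjusted p under 0.05 these 2 of the 6 genes were higher, beside 27.9% of 9377 genes. Log2 changes of *LHP1*, *SWN*, *EMF2* and *VEL1* were 0.92, 0.55, 0.45 and 0.20. When libraries were scaled by the intron counts instead, the values were 0.33 for *VRN2*, 0.28 for *CLF* and 0.39 for *LHP1*, and -0.01, -0.11 and -0.35 for *SWN*, *EMF2* and *VEL1*, with no adjusted p below 0.821. Relative to introns in general, no difference was thus detectable for these genes at this depth.

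The reads were not spread evenly over the introns of a gene. Of the 79 introns, 63 had a higher mean share in *brr2a*-2 and 14 a lower one, a split that was not computed over all introns. The 63 include 2 introns of *VIN3*, which had 0 counts in Col. Without overlap, 10 of the 79 were higher, beside 17.0% of 76968 introns with at least 1 count. However, 53 of the 79 had fewer than 10 counts in every library. *VRN2* intron 5, printed above, had 8, 9 and 7 counts in Col against 16, 19 and 19 counts in *brr2a*-2. Every *brr2a*-2 library was higher, and per 100 gene counts the intron had 2.34 ± 0.860 in Col against 5.42 ± 1.21 in *brr2a*-2 (SD, n = 3). Its log2 fold change beyond that of the gene was 0.63, with an interval from -0.30 to 1.56 (edgeR, adjusted p = 0.579). It was 0.27 without Col 1 (edgeR, adjusted p = 0.877) and 1.26 when introns were scaled by gene counts (edgeR, adjusted p = 0.0930). *VRN2* intron 10 was also higher without overlap, with 5, 5 and 4 counts in Col against 10, 13 and 8 in *brr2a*-2, while its intron 4 had 16, 7 and 4 counts in Col against 4, 6 and 6 in *brr2a*-2 and overlapped. Both of these were named after their values were seen.

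*SWN* intron 4 had 21, 6 and 12 counts in Col against 28, 17 and 14 in *brr2a*-2, and intron 10 had 11, 11 and 9 in Col against 17, 13 and 12 in *brr2a*-2. Both were higher without overlap per 100 gene counts, yet relative to introns in general their log2 fold changes were 0.06 and -0.14 (edgeR, adjusted p = 0.967 and 0.909). *EMF2* intron 10 had 22, 12 and 19 counts in Col against 39, 17 and 15 in *brr2a*-2, and intron 16 had 18, 9 and 11 in Col against 16, 16 and 14 in *brr2a*-2. Per 100 gene counts, *EMF2* intron 10 overlapped. Intron 16 was higher without overlap on that measure, at 2.37, 1.56 and 2.19 in Col against 2.69, 2.66 and 3.23 in *brr2a*-2. The log2 fold changes of *EMF2* introns 10 and 16 relative to introns in general were -0.09 and -0.15. *CLF* intron 5 had 13, 6 and 7 counts in Col against 12, 5 and 6 in *brr2a*-2, and *LHP1* intron 5 had 13, 4 and 1 in Col against 9, 5 and 7 in *brr2a*-2, and neither passed the filter. Of the introns that start with GC, *CLF* intron 15 had 0, 0 and 1 counts in Col against 2, 4 and 0 in *brr2a*-2, and *SWN* intron 3 had 7, 3 and 8 in Col against 7, 5 and 6 in *brr2a*-2, so both overlapped between the genotypes.

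*VEL1* intron 1, at chr4:14789136-14790278 on the minus strand and 1143 bp long, held most of the intron reads of its gene. It had 145, 42 and 74 counts in Col against 79, 56 and 82 in *brr2a*-2. The highest and the lowest value were both in Col, and the log2 fold change relative to introns in general was -0.56, with an interval from -1.42 to 0.30 (edgeR, adjusted p = 0.595). The 4 introns of *VIN3* had 0 counts in all Col libraries and 1, 2 and 1 counts in *brr2a*-2, which is too few for a comparison.

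**Figure D4:**
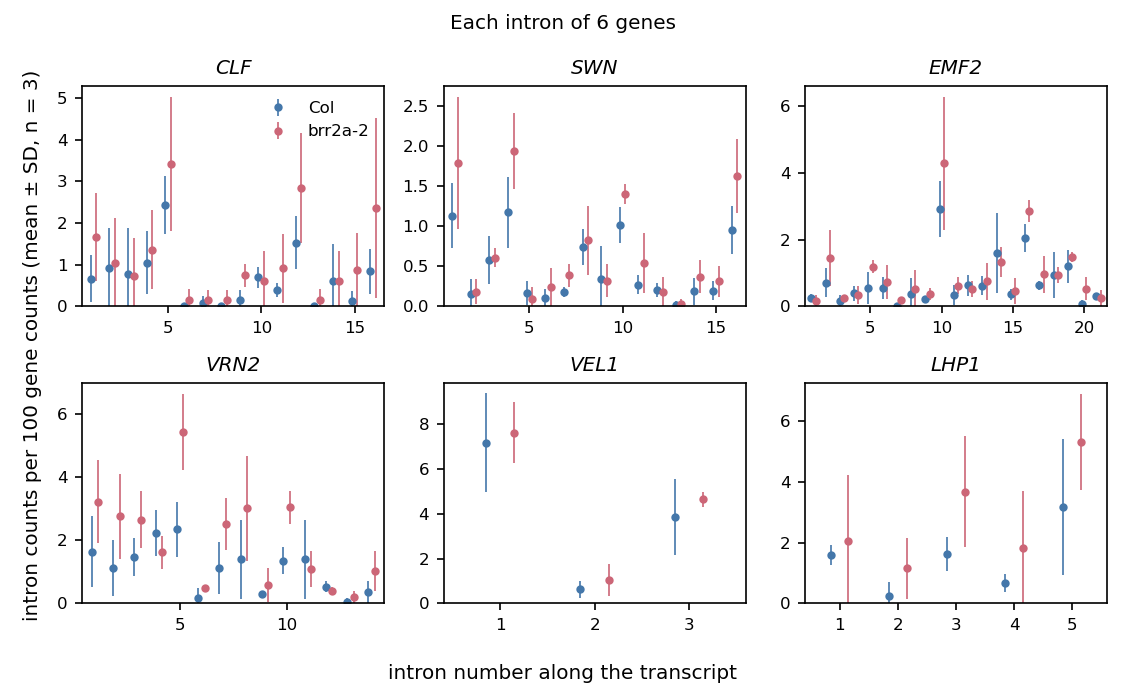
Intron counts per 100 gene counts for each intron of 6 genes, numbered along the transcript, as mean and SD of 3 libraries, blue for Col and red for *brr2a*-2, with a vertical scale of its own in each panel. *VRN2* intron 5 stands at 2.34 in Col against 5.42 in *brr2a*-2, and *VEL1* intron 1 has the highest share of all introns shown, with overlapping bars.

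Genes that work with or against these 10 were counted in the same gene test, and none of them was called. Among other PRC2 and VEL family genes, 5 of 9 were tested and the median log2 fold change was -0.07. *MSI1*, which encodes the histone-binding subunit of PRC2, had 23.9, 21.9 and 22.8 CPM in Col against 28.0, 28.2 and 24.7 CPM in *brr2a*-2, without overlap, and a log2 fold change of 0.24 (edgeR, adjusted p = 0.490). *MSI5*, of the same family, had a log2 fold change of -0.13 and overlapping libraries. *VEL3* had 0 counts, and the seed genes *MEA* and *FIS2* stayed below 1 CPM.

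Of 18 genes for Polycomb repressive complex 1 and associated proteins, not all of them repressors, 17 were tested. Of these, 1 was higher and 1 lower at an unadjusted p under 0.05, beside 14.4% of all genes in either direction. *EMF1*, which encodes a plant-specific Polycomb protein needed for vegetative growth, had 21.4, 19.96 and 21.6 CPM in Col against 29.8, 28.3 and 29.8 CPM in *brr2a*-2. The genotypes were clearly apart, with little spread in each, and the log2 fold change was 0.48 (edgeR, adjusted p = 0.236). *RTV1*, a relative of *VRN1*, had 28.1, 33.3 and 35.6 CPM in Col against 26.0, 23.9 and 24.2 CPM in *brr2a*-2. Like *VRN1* it was lower in all *brr2a*-2 libraries, with a log2 fold change of -0.39 (edgeR, adjusted p = 0.331).

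Genes that oppose Polycomb repression were also tested. Of 5 genes for demethylases of lysine 27, *ELF6* had 31.7, 38.8 and 37.0 CPM in Col against 47.3, 43.6 and 46.0 CPM in *brr2a*-2, without overlap, and a log2 fold change of 0.35. *JMJ30*, whose transcript is known to cycle with the clock, had 12.2, 1.95 and 4.64 CPM in Col against 1.43, 1.35 and 2.50 CPM in *brr2a*-2. Its log2 fold change of -1.85 was -0.91 without Col 1, and the libraries overlapped. Of 14 trithorax group and opposing chromatin genes, all tested, 10 had a positive log2 fold change, beside 8808 of 19121 genes in the whole test. Of the 14, 4 were higher without overlap, beside 10.8% of all genes, and 1 was higher at an unadjusted p under 0.05, beside 6.93%. This was *ATX3*, which encodes a trithorax-type methyltransferase of lysine 4, with 14.8, 13.2 and 15.2 CPM in Col against 22.1, 21.1 and 20.5 CPM in *brr2a*-2, a log2 fold change of 0.56 (edgeR, adjusted p = 0.223). *ATXR3*, the gene for the main enzyme that trimethylates lysine 4, had a log2 fold change of 0.31 and libraries without overlap.

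Known targets of PRC2 ranged from undetected to well covered genes such as *KNAT1*, which had 344 to 902 counts per library. Of 24 target genes, 13 did not pass the filter, among them *AP1*, *AP3*, *AG* and *LEC1*, so these floral and embryonic regulators were at or near 0 in Col and in *brr2a*-2. Of the 11 tested, 8 had a positive log2 fold change, beside 8808 of 19121 genes in the whole test. Their median was 0.44, beside -0.04 for all genes. It is the value of *KNAT1*, whose libraries overlapped, with 10.4 to 47.5 CPM in Col and 27.1 to 41.5 CPM in *brr2a*-2. *FLC*, which had a log2 fold change of -4.07, is not in this list. Of the 11, 2 were higher at an unadjusted p under 0.05 beside 6.93% of all genes. *DOG1*, a regulator of seed dormancy, had 0.996, 1.91 and 3.64 CPM in Col against 8.16, 4.53 and 5.17 CPM in *brr2a*-2, a log2 fold change of 1.47 (edgeR, adjusted p = 0.269) that lay between 1.11 without Col 1 and 2.06 without Col 3. *AGL19*, an activator of flowering, had 0.755, 0.186 and 0.422 CPM in Col against 1.34, 1.01 and 1.22 CPM in *brr2a*-2, a log2 fold change of 1.34 (edgeR, adjusted p = 0.311) that lay between 0.98 without Col 2 and 1.97 without Col 1. All *brr2a*-2 libraries were higher than Col for both genes.

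**Figure D5:**
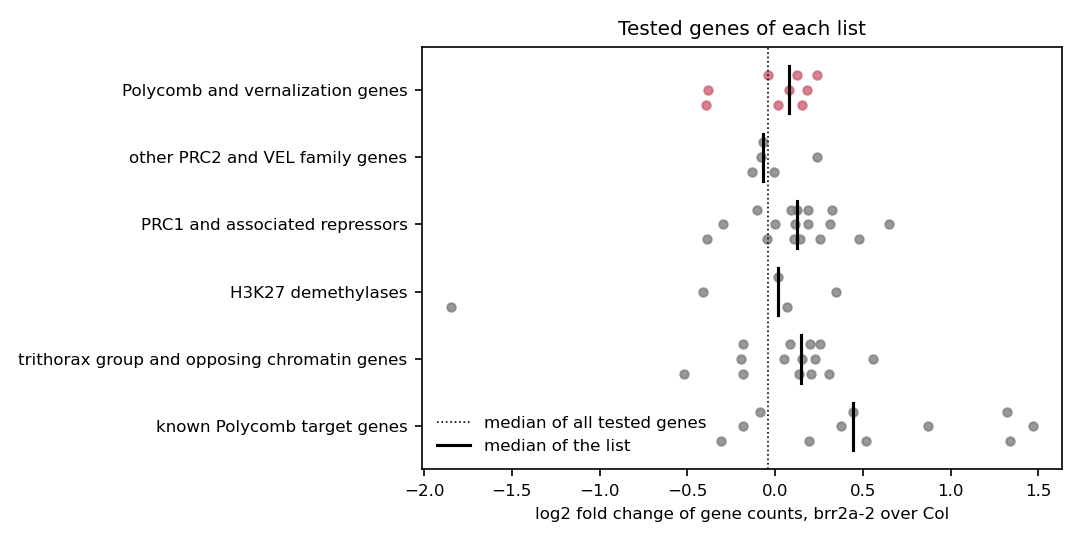
Log2 fold change of gene counts in *brr2a*-2 over Col for the tested genes of each list, red for the 9 Polycomb and vernalization genes, with a bar at the median of each list and a dotted line at the median of all tested genes, -0.04. The medians lie between -0.07 and 0.44, and the point far to the left is *JMJ30* at -1.85.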

How the data were processed

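RNA of 3 Col and 3 *brr2a*-2 samples was sequenced after removal of ribosomal RNA. According to the labels, material came from rosette leaves, whereas the study's text speaks of seedlings. The authors trimmed paired-end reads with Trimmomatic 0.32, aligned them to TAIR10 with TopHat2 2.010 and deposited raw counts per gene and per intron of the first isoform, made with HTSeq. Counting rules for overlapping and multimapped reads are not given in the sources used here.

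Models were fitted over all genes or all introns with edgeR 4.0.16 (R 4.3.3), using filterByExpr at a minimum count of 10, TMM scaling, the quasi-likelihood test and Benjamini-Hochberg adjustment. Intron tests took the log2 fold change of the gene, with a prior count of 2, as offset of the *brr2a*-2 libraries. CPM uses TMM-scaled library sizes. DESeq2 1.42.0, 1 RUVg factor from 5000 genes, other scalings and filters, a replicate block and each library left out were alternatives. Scripts used pandas 2.3.3, scipy 1.17.1 and matplotlib 3.10.9, and the fits were tested on simulated data. Intron positions and exon lengths come from TAIR10.1 RefSeq, on which 94.3% of introns were placed. Introns are those of the first isoform, whereas exon lengths cover all isoforms. In *SWN* and *VRN2*, among others, exon and intron lengths add up to more than the gene, so some bases belong to both. Intron shares and densities can therefore include reads from exons of other isoforms. Intron numbers in the table were taken to run along the genome, since counts then followed intron length within genes on the minus strand.

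The members, lists and tests were chosen with earlier results of these data known. Named are the 10 genes, *BRR2a*, *FLC* and the markers, of each other list the 2 tested genes with the smallest p, and of introns the one with the smallest p and the one with the most counts per gene. Introns on chromosome 3 were left out for *FIE*, *VRN1* and *VRN5*. Replicate pairs differed by more than sampling noise, with a chi-square per gene of 26.1 to 105. The labels do not say whether replicates were separate plantings, so p-values measure the spread between these libraries, and counting intervals cover counting error only.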

Additional observations from a re-analysis of the deposited data

How the results depend on the processing

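Of the 9 tested genes and of the introns of the 7 genes off chromosome 3, 0 were called in each of the 13 alternatives run for either count. These include each library left out (range 0 to 0), the replicate block (0 genes and 0 introns) and DESeq2. Calls were also few over all genes and introns, so these counts of 0 do not set the members apart. Of all genes, DESeq2 called 249 higher and 170 lower of 19955, and 1 RUVg factor 5 higher and 4 lower of 19121. Of all introns, those of chromosome 3 included, scaling by gene counts gave the most calls, 755 higher and 15 lower of 16881. The replicate numbers were not used as pairs in the main test. Deviations of same-numbered libraries correlated at 0.039, 0.228 and 0.422, and those of other pairs at -0.493 to 0.228. These values do not settle whether same-numbered libraries are pairs. With the replicate block, log2 fold changes were -0.39 for *CLF* and -0.37 for *VRN1*, and the block changed no call. Over the alternatives, *CLF* ranged from -0.46 to -0.27 and *VRN1* from -0.48 to -0.25, with adjusted p between 0.262 and 0.770. With library totals without TMM, the unadjusted p of edgeR's test was 0.0417 for *CLF* and 0.0284 for *VRN1*. For *VRN1* it was also 0.0434 with 1 RUVg factor and 0.0240 without Col replicate 1. *CLF*, *SWN*, *FIE*, *EMF2*, *VRN2*, *VRN1* and *VRN5* kept their direction in all 13.

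*VEL1* and *LHP1*, close to 0 in log2 fold change, changed direction. *VEL1* was at -0.055 with library totals without TMM, and at -0.077 without Col replicate 2, -0.021 without *brr2a*-2 replicate 1 and -0.028 without *brr2a*-2 replicate 3, and 0.12 at most with 1 library left out. *LHP1* was at 0.07 and 0.10 without Col replicates 1 and 3, and at 0.06 and 0.10 without *brr2a*-2 replicates 1 and 2, and -0.30 at the lowest. Scaling introns by gene counts turned *SWN* intron 10 to 0.50, *EMF2* introns 10 and 16 to 0.57 and 0.48 and *VEL1* intron 1 to 0.070. *SWN* intron 10 was at 0.035 with no gene correction and 0.043 without Col replicate 2, with -0.35 at the lowest, and *SWN* intron 4 at -0.17 without Col replicate 2 and -0.07 without *brr2a*-2 replicate 1, with 0.26 at the highest. *EMF2* intron 10 was at 0.015 without TMM and 0.017 without the filter, 0.11 without Col replicate 3 and 0.15 without *brr2a*-2 replicate 2, with -0.44 at the lowest. Summed introns scaled by intron counts were at -0.0052, -0.11 and -0.35 for *SWN*, *EMF2* and *VEL1*. Apart from the scalings, the cause was not tested.

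The intron share summed over the 7 genes was 4.73 counts per 100 gene counts higher in *brr2a*-2, and 4.24 to 5.42 with each library left out. Levels per kb moved by less than 1 SD without TMM. Depth limits the intron results, as 69 of 79 introns had too few counts for the test.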

Other observations

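Transcripts of dividing cells had lower mean values in *brr2a*-2. All 6 markers (*CYCB1;1*, *CYCB1;2*, *CDKB1;1*, *CDKB2;1*, *CDKB2;2* and *KNOLLE*) had a negative log2 fold change, beside 10313 of 19121 genes, with a median of -0.41. However, 0 of these markers passed an unadjusted p under 0.05 in edgeR's test or an adjusted p in DESeq2. Their sum was 40.7, 77.3 and 57.0 CPM in Col 1 to 3 and 31.7, 35.4 and 63.5 CPM in *brr2a*-2 1 to 3, so that *brr2a*-2 3 lay within the Col range. The mitotic kinase gene *CDKB1;1* had 1.75, 1.72 and 1.32 CPM in Col and 0.738, 0.868 and 1.56 CPM in *brr2a*-2, and *CDKB2;1* had 7.34, 11.9 and 10.6 CPM in Col and 3.46, 3.91 and 11.5 CPM in *brr2a*-2. Several Polycomb genes are known to be expressed in dividing tissue, and the part of this difference in their values was not tested.

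The balance of the methyltransferase genes can be read within each library, without any scaling between libraries. Per kb of exon, *SWN* counts exceeded *CLF* counts 3.17, 2.50 and 3.66 times in Col and 5.07, 4.69 and 3.98 times in *brr2a*-2, without overlap. The ratio of *EMF2* to *VRN2* was 0.984, 1.46 and 1.30 in Col and 1.16, 1.22 and 1.11 in *brr2a*-2, and that of *RTV1* to *VRN1* was 1.51, 1.56 and 1.42 in Col and 1.58, 1.49 and 1.39 in *brr2a*-2, and both overlapped. *VEL1* over *VRN5* also overlapped, at 2.31, 1.53 and 2.37 in Col and 1.73, 1.41 and 2.18 in *brr2a*-2. Exact two-sided permutation tests gave p = 0.1, the smallest that 3 against 3 libraries allow, for *SWN* over *CLF*, 0.6 for *EMF2* over *VRN2*, 0.5 for *VEL1* over *VRN5* and 0.9 for *RTV1* over *VRN1*. The ratios were chosen after the values of the genes had been seen. *CLF* was lower and *SWN* higher in *brr2a*-2 without overlap in CPM, so their ratio had to separate. Its p of 0.1 in the permutation test was thereby fixed and adds nothing to the values of the 2 genes.

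Among related genes off chromosome 3 with at least 30 intron counts, the intron share of *EMF1* had the highest ratio of *brr2a*-2 to Col. It was 3.52, 1.63 and 2.69 intron counts per 100 gene counts in Col and 7.91, 7.85 and 6.53 in *brr2a*-2, a ratio of 2.84, while its gene counts were also higher. The Col shares of *EMF1* rest on few intron counts, as the gene had 710, 429 and 409 gene counts there. *MSI5* and *MSI4* had ratios of 2.11 and 2.04, and *RING1B*, at 0.837, was the only gene of these lists with a lower mean share in *brr2a*-2. That mean rests on Col 1, as *RING1B* had 16.0, 4.23 and 3.80 in Col and 5.88, 6.06 and 8.14 in *brr2a*-2, where all libraries were above Col 2 and Col 3. Of 13 trithorax group and opposing chromatin genes, 6 had a higher share without overlap, and of 13 genes for PRC1 and associated proteins 4 did, beside 41.4% of all genes. Both counts include Col 1 and were not repeated without it. Over all genes, leaving Col 1 out changed the value to 55.0%. Apart from *EMF1*, the genes in this paragraph were chosen after their values were seen.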
